A study of Mus musculus with 3 samples.

Results

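The start side of Rb1cc1 was examined in chromatin immunoprecipitation and sequencing (ChIP-seq) tracks of mouse liver, as a window of 20 kb at chr1:6195001-6215000 (build mm9). It holds 1 of the 21764 regions called for the estrogen-related receptor ERRα and 1 of the 9069 called for mTOR. The window was chosen by measured values, namely an ERRα peak at chr1:6204201-6204800 and a weaker mTOR peak directly beside it at chr1:6204801-6205000, so the presence of these peaks is not a result and no test was made of them. The start of the gene, at position 6204743 on the plus strand, was supplied with the choice of the window and was not taken from an mm9 annotation. All distances below are in bp from this position, negative before the gene and positive inside it. Of the 20 kb, 9742 bp lay before the start and 10257 bp after it.

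The series holds 3 libraries from liver of male C57Bl/6 mice that were 2 to 3 months old: 1 from immunoprecipitation with an mTOR antibody, 1 with an ERRα antibody and 1 with nonspecific rabbit immunoglobulin G (IgG) as the control. No genetic change and no drug is given for these mice, although the series title concerns fatty liver after rapamycin, an mTOR inhibitor. Each ChIP library combined 8 immunoprecipitations from the chromatin of 26 livers. How many went into the IgG control is not stated in the sources. There was 1 library per group, so no value has a replicate check, and every comparison is one of libraries. Whole liver was used, so the cell type behind a signal is not known.

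Rb1cc1 encodes a large scaffold protein, also named FIP200, that holds together the ULK kinase complex with ATG13 and ATG101. That complex starts the formation of autophagosomes, the vesicles that carry cell material to lysosomes. The kinase mTOR, as part of the complex mTORC1, phosphorylates ULK1 and ATG13 and thereby restrains autophagy when nutrients are plentiful, and in liver this process supplies substrates during fasting. ERRα is an orphan nuclear receptor that binds DNA directly and is known for its targets in mitochondrial energy metabolism. On assembly GRCm38.p6 the neighbours of Rb1cc1 are the long noncoding RNA gene 4732440D04Rik on one side, which overlaps it, and Alkal1, which encodes a ligand of the receptors ALK and LTK, on the other. Because of this overlap, signal near the start cannot be assigned to Rb1cc1 rather than to 4732440D04Rik.

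Coverage is the number of extended tags over a position, scaled by the authors to 10000000 tags. On this scale 1 mTOR tag was worth 0.160, 1 ERRα tag 0.135 and 1 IgG tag 0.145, from totals of 62500000, 74200000 and 68800000 tags. A fold is the ChIP mean of a 200-bp bin plus 0.2, divided by the IgG mean plus 0.2. A bin was called at 3-fold or more with a ChIP mean above 2.01. Intervals are exact (Clopper-Pearson) 95% intervals on approximate tag numbers, without the added 0.2. They cover counting error only and do not allow for the choice of the window. The handling of duplicate reads is not stated in the sources. Both ChIPs were divided by the same IgG library.

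ERRα formed a single tall peak just before the start of Rb1cc1. In the 3 bins of the peak, mean ERRα coverage was 10.5 at chr1:6204201-6204400, 18.2 at chr1:6204401-6204600 and 8.13 at chr1:6204601-6204800. IgG in the same bins was 0.677, 0.827 and 0.752. The ERRα peak was therefore 12.1-fold (7.07 to 44.4), 17.9-fold (10.4 to 49.1) and 8.75-fold (4.91 to 27.2) over IgG. About 180 ERRα tags and 7.59 IgG tags stood behind the highest of these bins, so the IgG count sets most of the width of the interval.

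The ERRα summit lay at position 6204477, at -266 from the start, where coverage was 20.9, or about 155 tags. mTOR coverage at the same position was 1.70 and IgG coverage 0.600. Coverage within 1 counting SD of the summit ran from -282 to -235, a stretch of 48 bp. The peak was 388 bp wide at 50% of its height, from -448 to -61, and 535 bp wide at 25%, from -532 to 2. ERRα coverage thus lay almost wholly before the start: at the start itself it was 7.0, and in the bin from 58 to 257 it was 0.917, 1.43-fold over IgG (0.502 to 6.34).

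Down to 25% of its height the ERRα peak reached about equally far from its summit on both sides. Below that, coverage was higher outwards, but on few tags and without an interval for the difference. At a like distance from the summit it was 2.37 at chr1:6204101-6204150 (about 5.86 tags) and 1.28 at chr1:6204801-6204850 (about 3.16 tags). In the bin just before the peak, chr1:6204001-6204200, ERRα coverage was 2.16 and IgG coverage 0.678. At 2.69-fold (1.27 to 9.83) it was the single uncalled ERRα bin of the window that passed the minimum level. The next bin outwards, chr1:6203801-6204000, held 1.09 against 0.400 in IgG, with an interval of 0.756 to 11.0 that includes 1.

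**Figure D1:**
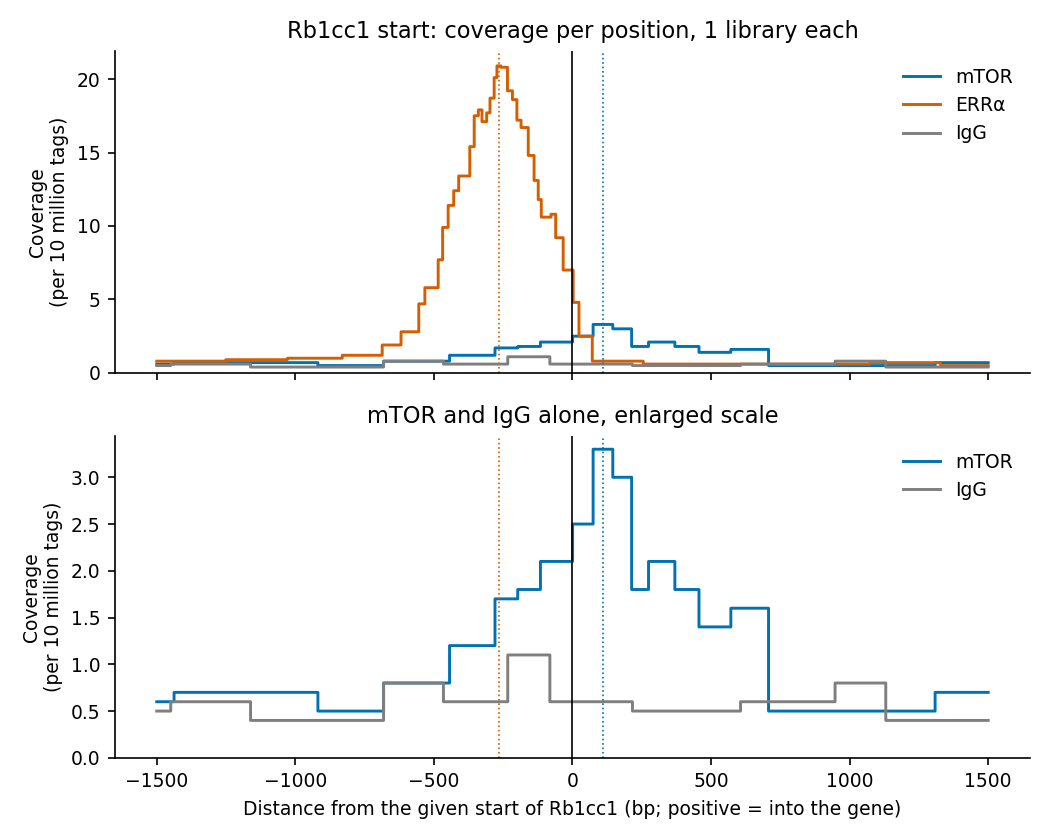
Coverage at each position within 1500 bp of the given start of Rb1cc1 (black line at 0) in the ERRα, mTOR and IgG libraries, in units per 10000000 tags; the lower panel repeats mTOR and IgG on an enlarged scale, and dotted lines mark the summits. The ERRα peak reaches 20.9 at -266 and is back at 0.800 where mTOR has its highest value of 3.3 at 110.

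mTOR coverage was far lower and lay mainly inside the gene. Mean mTOR coverage was 1.00, 1.57 and 2.17 in the 3 bins of the ERRα peak. It reached 2.80 at chr1:6204801-6205000 and then declined to 1.94, 1.49 and 0.775 in the next 3 bins. IgG stayed between 0.50 and 0.827 over these 7 bins. The highest bin, from 58 to 257, was 3.85-fold over IgG (1.88 to 17.1) on about 23.3 mTOR tags and 5.32 IgG tags. It was the single mTOR bin called.

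The bins on either side of the called mTOR bin each missed a different criterion. At chr1:6204601-6204800, which covers the start, mTOR coverage of 2.17 passed the minimum level, but the fold of 2.49 (1.13 to 8.02) did not reach 3. At chr1:6205001-6205200 the fold of 3.06 (1.23 to 12.3) passed, but the level of 1.94 did not. The mTOR interval lay above 1 in these 3 adjacent bins and included 1 in the other 7 of the 10 bins within chr1:6203801-6205800. Tags of about 150 bp reach across bin edges, so neighbouring bins share tags and are not independent.

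The mTOR summit was at position 6204853, 110 bp inside the gene, with coverage of 3.3, or about 20.6 tags. ERRα coverage there was 0.800 and IgG coverage 0.600. The stretch within 1 counting SD of the mTOR summit ran from 75 to 213, or 139 bp. At 50% of its height the mTOR elevation was 736 bp wide, from -279 to 456, and at 25% it was 1151 bp wide, from -443 to 707. The track is deposited in intervals of uneven length. Near the start these had a median length of 87.0 bp for mTOR, 19 bp for ERRα and 265 bp for IgG, so the mTOR summit is located less finely than the ERRα summit.

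The summits were 376 bp apart, with mTOR on the gene side. Taking any pair of positions within the stretches of 1 counting SD gave 310 to 495 bp. These stretches describe the height of coverage and are not intervals for the summit positions. The range is therefore not a counting error of the distance. mTOR coverage first exceeded ERRα coverage beyond the ERRα summit at position 6204815, at 72 from the start, where the values were 2.50 and 0.800. In the highest ERRα bin the ERRα ChIP was 10.4 times the mTOR ChIP (6.65 to 22.3), and in the highest mTOR bin the mTOR ChIP was 2.69 times the ERRα ChIP (1.35 to 7.45), each with 0.2 added. The second ratio depends on where the bins begin: with bin edges moved by 100 bp, the highest mTOR bin was chr1:6204701-6204900, which takes in the foot of the ERRα peak, and mTOR stood at 0.881 times ERRα.

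**Figure D2:**
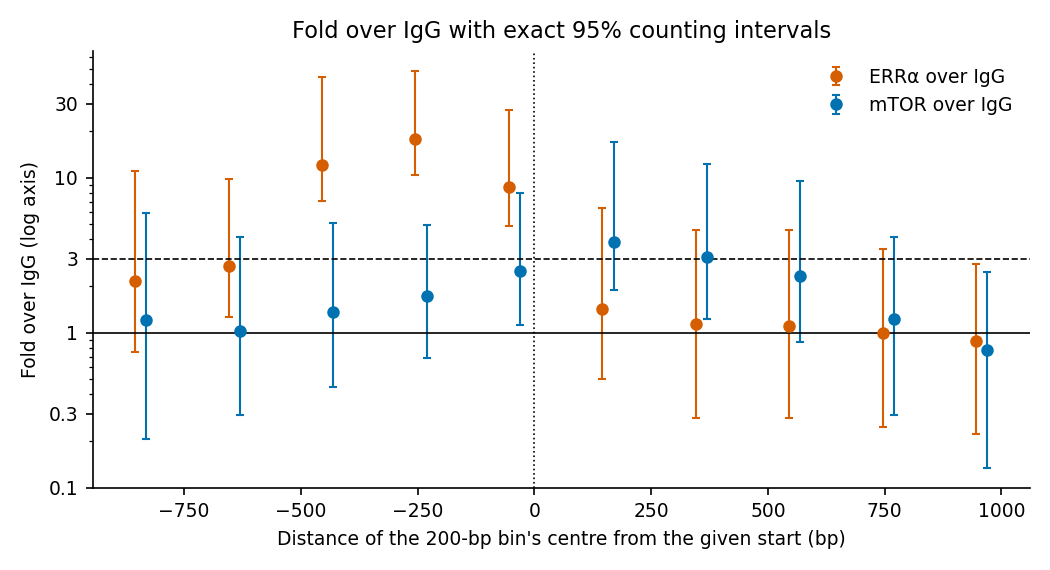
Fold over IgG of the ERRα and mTOR ChIPs in the 10 bins of 200 bp around the given start (dotted line), on a log axis with exact 95% counting intervals; the dashed line is 3-fold and the solid line 1. ERRα peaks at 17.9-fold before the start and mTOR at 3.85-fold after it.

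The unequal placement also showed in sums over longer stretches, which were set after the values had been seen and carry no added 0.2. Over the 600 bp before the start, mean coverage was 12.2 for ERRα, 1.42 for mTOR and 0.772 for IgG. ERRα was there 15.9 times IgG (10.3 to 26.2) and mTOR 1.84 times IgG (1.04 to 3.32). Over the first 600 bp of the gene, mean coverage was 0.992 for ERRα, 2.16 for mTOR and 0.536 for IgG. mTOR was there 4.03 times IgG (2.20 to 7.56) and ERRα 1.85 times IgG (0.930 to 3.60). Set against each other, ERRα was 8.63 times mTOR before the start (6.17 to 12.7), and mTOR was 2.18 times ERRα after it (1.38 to 3.60). In the next 400 bp outwards, mTOR was 1.25 times IgG on the side before the gene (0.447 to 3.40) and 1.28 times IgG on the gene side (0.538 to 3.21), and both intervals include 1.

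Counted as tags above the mean of the rest of the window, ERRα had an excess of 372 tags over chr1:6203801-6205800, of which 96.6% lay before the start. mTOR had an excess of 66.6 tags, and 33.4% of it lay before the start. Some of the mTOR excess thus lay before the start, on the side of the ERRα peak, whereas the ERRα excess inside the gene came to 12.7 tags. IgG was not subtracted from these excesses, and no counting error was computed for them. Mean IgG coverage was itself 0.772 over the 600 bp before the start, against 0.577 in the rest of the window.

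The remainder of the window held no called bin. Of the 100 bins in all, 3 were called for ERRα and 1 for mTOR, all within 600 bp of the start; over the nuclear genome 0.329% of bins were called for ERRα and 0.130% for mTOR. The calls were used in choosing the window, so nothing is read from the difference. In the 90 bins outside chr1:6203801-6205800, ERRα coverage ran from 0.200 to 1.2 with a median of 0.575, mTOR from 0.200 to 1.13 with a median of 0.50, and IgG from 0.30 to 1.19 with a median of 0.534. The median fold in these bins was 1.06 for ERRα and 0.992 for mTOR. The largest fold among them was 2.21 for mTOR, at chr1:6207801-6208000, and 1.98 for ERRα, at chr1:6202001-6202200. Against flanks 2 to 5 kb away in its own library, the bin at the ERRα summit stood at 27.9 times for ERRα, 2.65 times for mTOR and 1.43 times for IgG. The bin at the mTOR summit stood at 5.02 times for mTOR, 1.47 times for ERRα and 1.04 times for IgG. These ratios carry no added 0.2. With 0.2 added, the highest ERRα bin stood at 21.6 times and the highest mTOR bin at 3.97 times its own flanks.

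**Figure D3:**
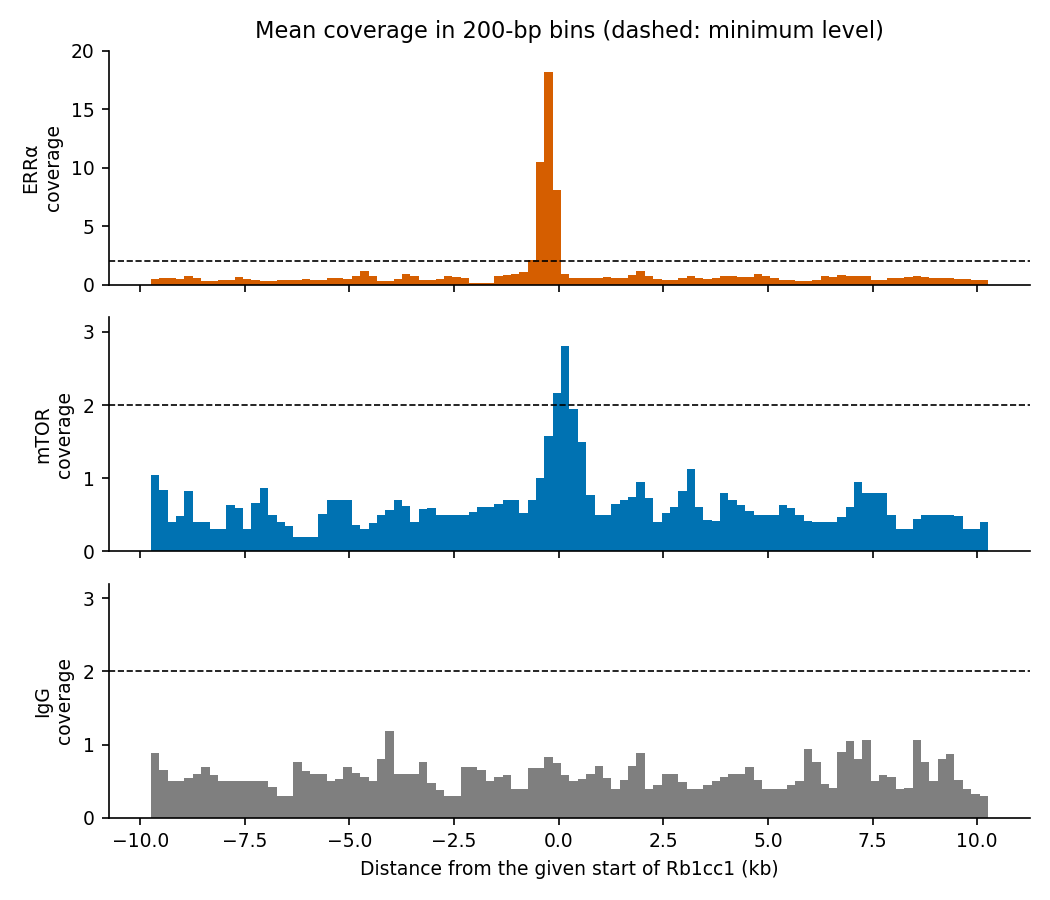
Mean coverage in the 100 bins of 200 bp of the window for ERRα (axis to 20), mTOR and IgG (axes to 3.2), by distance from the given start; the dashed line is the minimum level of 2.01. One group of bins at the start stands out in ERRα (up to 18.2) and mTOR (up to 2.80), and IgG reaches 1.19 at most.

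Among all ERRα regions the Rb1cc1 region was a strong one. Its fold of 17.9 ranked 368 of 21764, above 98.3% of the regions, whose median was 4.26 with quartiles of 3.48 and 5.84. Its level of 18.2 ranked 223, against a median level of 3.41. Its width at 50% of the summit, 388 bp, lay below the median of 407 bp over all ERRα regions, of which 43.9% were narrower. It lay above the median of 354 bp (quartiles 313 and 403) over the 722 ERRα regions around it in rank of level, of which 69.4% were narrower. The regions next to it in the order of fold were chr13:55982201-55983200, at 18.0-fold, and chr14:20997601-20998200, at 17.9-fold, with levels of 17.6 and 12.4. The nearest other ERRα regions on the chromosome lay 305 kb before it, at chr1:5899201-5899400, and 230 kb after it, at chr1:6434601-6434800. Both were weak, at 3.51-fold and 3.48-fold. This distance was long: 96.6% of ERRα regions had a closer neighbour, the median being 14.0 kb.

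Among mTOR regions the one at Rb1cc1 was ordinary in strength. Its fold of 3.85 ranked 5817 of 9069, below the median of 4.46 (quartiles 3.54 and 6.31), and its level of 2.80 ranked 5392, against a median of 3.11. The regions next in the order, chr6:59026001-59026200 and chr6:48692801-48693400, were likewise at 3.85-fold, with levels of 2.32 and 3.32. Its width at 50% of the summit stood out more: 736 bp exceeded the width of 94.1% of the 1000 mTOR regions closest to it in level, whose median was 375 bp with quartiles of 293 and 475. The width of a peak with about 20.6 tags over its summit carries a large counting error, for which no interval was computed. The nearest mTOR regions were chr1:6164001-6164200, 40.6 kb before, at 3.99-fold, and chr1:6257201-6257800, 52.2 kb after, at 7.27-fold. The latter was thus higher than the mTOR region at the start, with a level of 5.62.

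**Figure D4:**
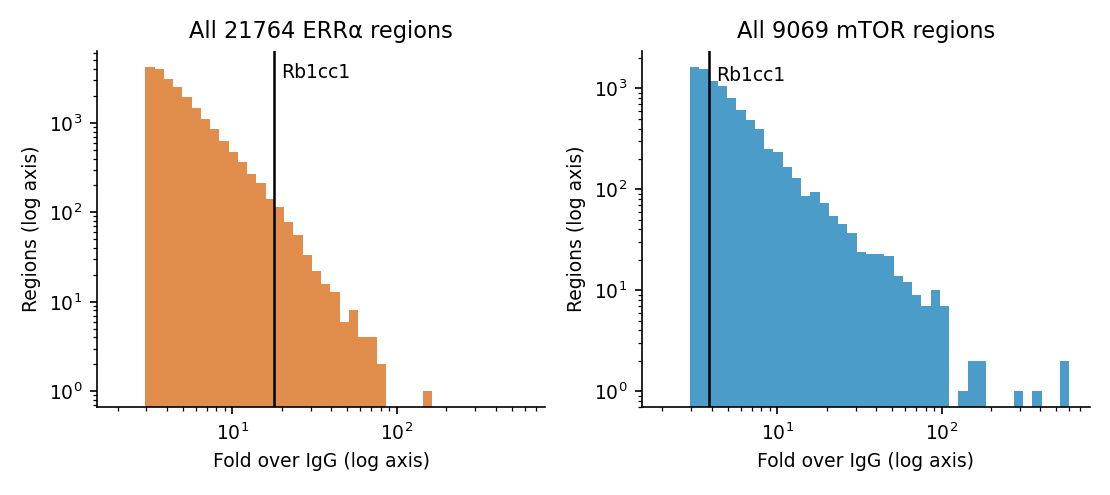
Number of regions by fold over IgG for the 21764 ERRα and the 9069 mTOR regions, both axes logarithmic; vertical lines mark the regions at Rb1cc1. The line lies at 17.9 in the upper tail of the ERRα distribution and at 3.85, between the first quartile of 3.54 and the median of 4.46, for mTOR.

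In the highest bin of the ERRα region at Rb1cc1 the mTOR ChIP was 1.72-fold over IgG, with an interval of 0.687 to 4.98 that includes 1. At the highest bins of all ERRα regions the median mTOR fold was 1.29 (quartiles 1.00 and 1.66), and at the 722 strong ERRα regions around it in rank of level it was 1.56 (1.17 and 2.19). These 722 regions are every ERRα region ranked above Rb1cc1 by level and the 500 ranked just below it, so their levels ran from 11.9 to 224 and they are not a set of like height. Of them, 58.3% had a lower mTOR fold than Rb1cc1. The ERRα fold in the highest bin of the mTOR region was 1.43, against a median of 1.21 at all mTOR regions (quartiles 0.937 and 1.62).

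The regions at Rb1cc1 bordered each other without sharing a bin. This arrangement was found for 123 of the 9069 mTOR regions (1.36%), whereas 546 (6.02%) overlapped an ERRα region. A further 998 (11.0%) had one within 2 kb. The distance between the mTOR summit and the nearest ERRα summit had a median of 314 bp for bordering regions, with quartiles of 246.5 and 440.5 bp, and of 94.5 bp for overlapping ones (38.0 and 208 bp). At 376 bp, the distance at Rb1cc1 was exceeded or equalled by 49 of the 123 bordering regions, itself included, and by 53 of the 546 overlapping ones. Median ERRα and mTOR folds of the bordering regions were 4.61 and 4.23, so the ERRα fold at Rb1cc1 was well above, and the mTOR fold slightly below, these medians. Whether regions count as bordering or overlapping depends on the bin edges. With edges moved by 100 bp, 4 ERRα and 2 mTOR bins were called at Rb1cc1, and chr1:6204701-6204900 was called for both, at 4.15-fold for ERRα and 3.66-fold for mTOR.

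**Figure D5:**
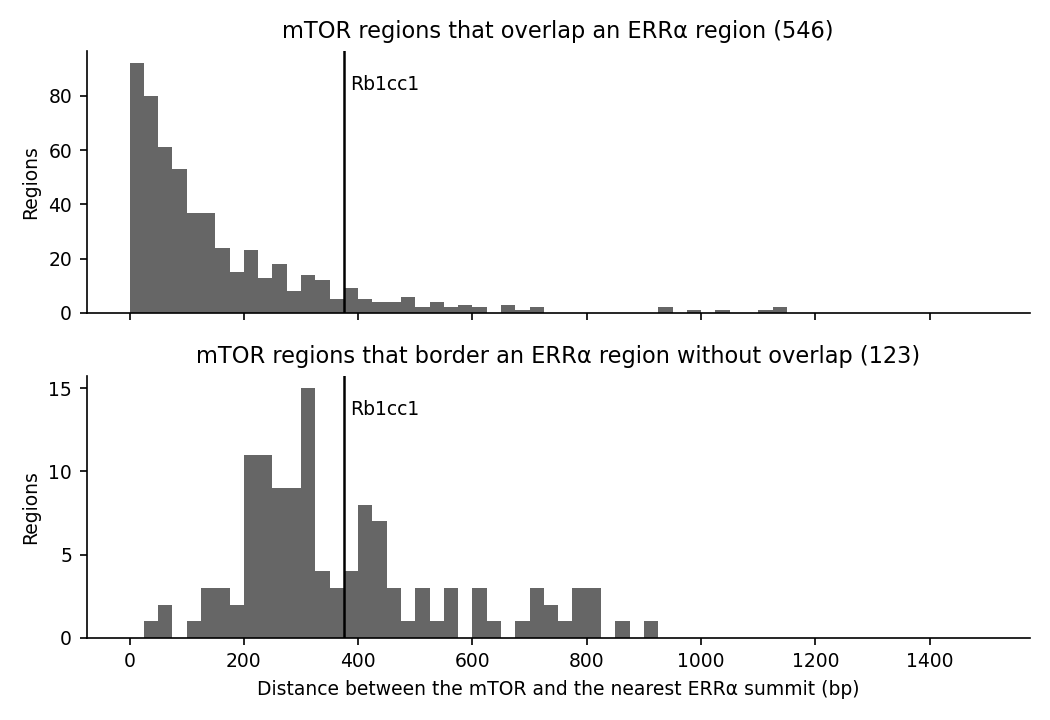
Distance in bp between the summit of an mTOR region and the nearest ERRα summit, for the 546 mTOR regions that overlap an ERRα region (top) and the 123 that border one without overlap (bottom), in steps of 25 bp; the line marks Rb1cc1. Its 376 bp lies above the medians of 94.5 and 314 bp.

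Coverage at other autophagy genes was not analysed here, because no mm9 gene positions were used. Their promoter sequences were searched instead, as 300 bases around the start, most of them before it, from RefSeq on assembly GRCm38.p6. Of a list of 51 genes of autophagy and of the mTOR pathway, 43 were matched, and Rb1cc1, Becn1, Pik3c3, Atg12, Atg16l1, Map1lc3a, Wdr45b and Deptor were not. The half-site AAGGTCA, which ERR proteins prefer, was present on either strand in the promoters of 2 of the 43 genes (4.65%), against 5.38% of all 27025 genes with a promoter. The genes were Atg4a, a protease that processes LC3-family proteins, and Nrbf2, a subunit of the lipid kinase complex that acts after the ULK complex. The longer element TCAAGGTCA, which contains that half-site, was in 0 of the 43, against 0.466% of all genes, and is too rare for a comparison over a list of this length.

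The other motifs searched are known elements of promoters. The E-box CACGTG was in 6 of the 43 (14.0%), among them Atg5 and Atg7 of the conjugation machinery, against 8.09% of all. The ETS motif CCGGAAG was in 6 (14.0%), among them Atg101 and Mtor, against 9.93%. The cAMP response element TGACGTCA was in 2 (4.65%, Atg5 and Atg16l2) against 2.03%, and the YY1 motif AAGATGGC in 3 (6.98%, Atg4b, Atg4d and Tsc1) against 3.19%. The GC box GGGCGG was in 28 (65.1%) against 38.2%, and the NRF1 core GCGCATGCG in 0 against 1.95%. The 43 genes were not matched to all genes in gene type or base composition, and most counts are small. The differences are therefore not read as a trait of autophagy genes. These counts describe letters in one window per promoter and say nothing of binding.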

How the data were processed

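The window and the gene list were chosen with earlier results of these data known. Per the labels' protocols, TruSeq libraries of sonicated, immunoprecipitated chromatin were read as single 50-bp reads. The deposited values are signal, namely tag coverage in intervals at a precision of 0.1. Per the file headers, the authors normalised it to 10000000 tags. The submitters' processing notes name MACS 1.4.1, BWA 0.5.9 and mm9 without their roles, and what wrote the tracks is not stated in the sources. Summed coverage was 149.3 to 149.9 bp per tag, so 150 bp was taken as the tag length.

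Coverage was averaged over 200-bp bins of chromosomes 1 to 19, X and Y, and 12296738 bins with IgG coverage were counted genome-wide. The pseudocount of 0.2 and the minimum level of 2.01 are the 5th and 99.9th percentiles of IgG bins above 0. At 2.01 a bin held about 16.7 mTOR or 19.8 ERRα tags. Called bins that adjoin were merged, and a region takes the fold of the bin with its highest ChIP level. A summit is the middle of the highest coverage. The text names, by rule, Rb1cc1, its neighbours, the highest bins, bins above the minimum level, regions next in rank and list genes with the longer ERR element, of which there were 0; other bins, regions and genes were chosen after their values were seen. The caller, intervals and summit finder were tried on simulated data. For the caller, pass marks were set only for bins with a planted fold above that of either Rb1cc1 region and for bins with none. Planted folds near that of the mTOR region had no pass mark, so calls of that strength were not tested. For the summit finder, a pass mark was set only at a depth like that of the ERRα summit. At the lower depth of the mTOR summit the error was computed without a pass mark, on simulated peaks narrower than the mTOR elevation. The location of that summit was therefore not tested. Python 3.11.15, NumPy 2.4.6, pandas 2.3.3, SciPy 1.17.1 and Matplotlib 3.10.9 were used.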

Additional observations from a re-analysis of the deposited data

How the results depend on the processing

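The ERRα fold of 17.9 ranged from 15.2 (pseudocount doubled to 0.4) to 25.6 (50-bp bins) over 9 alternatives. The mTOR fold of 3.85 ranged from 3.27 (pseudocount doubled) to 4.29 (50-bp bins) over the same 9. All these values lay within the counting interval of the main value. The alternatives reuse the same tags and the intervals are wide, so lying within them is no check of stability. The ratio of ERRα to mTOR in the highest ERRα bin ran from 9.46 to 12.1. The ratio of mTOR to ERRα in the highest mTOR bin ran from 2.43 to 3.43 but reversed to 0.881 with bin edges moved by 100 bp. The summit distance of 376 bp ran from 367 bp (running mean over 50 bp) to 414 bp (running mean over 150 bp). The ERRα peak had 3 or 4 called bins in all 7 alternatives. The mTOR call was the least stable: 0 bins were called at a minimum of 5-fold, 2 at 2-fold, 2 with the minimum level at the 99th percentile of IgG (1.41), 2 with moved edges, and 1 in the other 3 alternatives. The called mTOR bin rests on about 23.3 mTOR and 5.32 IgG tags, which gives the wide counting interval of 1.88 to 17.1. Leaving out a library was not possible with 1 library per group.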
